A study of Bos grunniens with 18 samples.

Results

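Messenger RNA sites enriched with an antibody against N6-methyladenosine (m6A) were compared between the tail (cauda) and the body (corpus) of the yak epididymis. The sites are all 13917 rows of the table in which the authors set the cauda against the corpus, of 41804 rows in their 3 tables of region pairs. A site is a whole enriched peak, not a single adenosine. The 13917 sites lay in 7939 genes, and 13377 of them lay in the 7711 genes that have a symbol in the authors' expression table. Another 156 sites had no gene identifier.

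The tissue came from healthy adult male yaks (Bos grunniens) aged 4 years, with no treatment or genetic change named in the labels. The study used 6 animals, and the comparison rests on 3 antibody-enriched (RIP) and 3 unenriched (input) libraries of each of the 2 regions, 12 of the 18 libraries in all. The labels do not tie libraries to animals, so the spread between libraries behind the authors' p-values may be technical. Epididymis divided by anatomy is a mixture of duct lining, muscle, connective tissue, vessels, blood and stored sperm. Fewer cells of a type and less RNA per cell therefore cannot be told apart.

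The m6A mark is written on adenosines of messenger RNA by a methyltransferase complex built around METTL3 and METTL14, removed by the erasers FTO and ALKBH5, and bound by reader proteins such as the YTH family. It is known to affect the splicing, stability and translation of the transcripts that carry it. Sperm become motile and able to fertilise as they pass down the epididymal duct, and the corpus belongs to the segment of maturation while the cauda stores them. The lining changes its secreted proteins, ion transport and antimicrobial peptides from segment to segment.

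The deposited table has 1 fold, p-value and adjusted p-value for each site and no value for a library, so errors over replicates cannot be given, and the depth is unknown. A site is called here when its adjusted p from the authors' deposited table is under 0.05, and folds are cauda over corpus. The sources used here do not say whether the folds are relative to input, so more methylation and more transcript cannot be told apart. The labelled regions could not be checked against marker expression, because the expression columns match no label. They do not give the genome build either, and exon, intron and untranslated-region classes were not analysed here. Coordinates count from 1.

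Between the cauda and the corpus 273 of 13917 sites were called (1.96%) per the authors' deposited table. The called sites lay in 252 genes, and 173 were higher in the cauda (1.24% of all sites) while 100 were lower (0.719%). Large gains were found in RTF2 and NIPSNAP2, and the largest losses in RBBP8NL and Ubr4, a ubiquitin ligase. An unadjusted p under 0.05 was reached by 2282 sites (16.4%) per the authors' deposited table. The median log2 fold of all sites per the authors' deposited table was 0.046, with quartiles at -0.16 and 0.24, and 55.9% of the sites had a positive value.

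Called differences were of very unequal size. The absolute log2 fold of the called sites per the authors' deposited table had a median of 0.59 and quartiles of 0.34 and 0.86. At least 2-fold differences were found at 47 called sites, of which 31 were higher and 16 lower in the cauda. At the other end, 17 called sites had an absolute log2 fold under 0.1, 10 of them higher and 7 lower, and 30 had one under 0.2. Most large differences were not called: of 330 sites that differed at least 2-fold per the authors' deposited table, 14.2% were called, and these 330 sites had a median length of 151 bases.

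**Figure D1:**
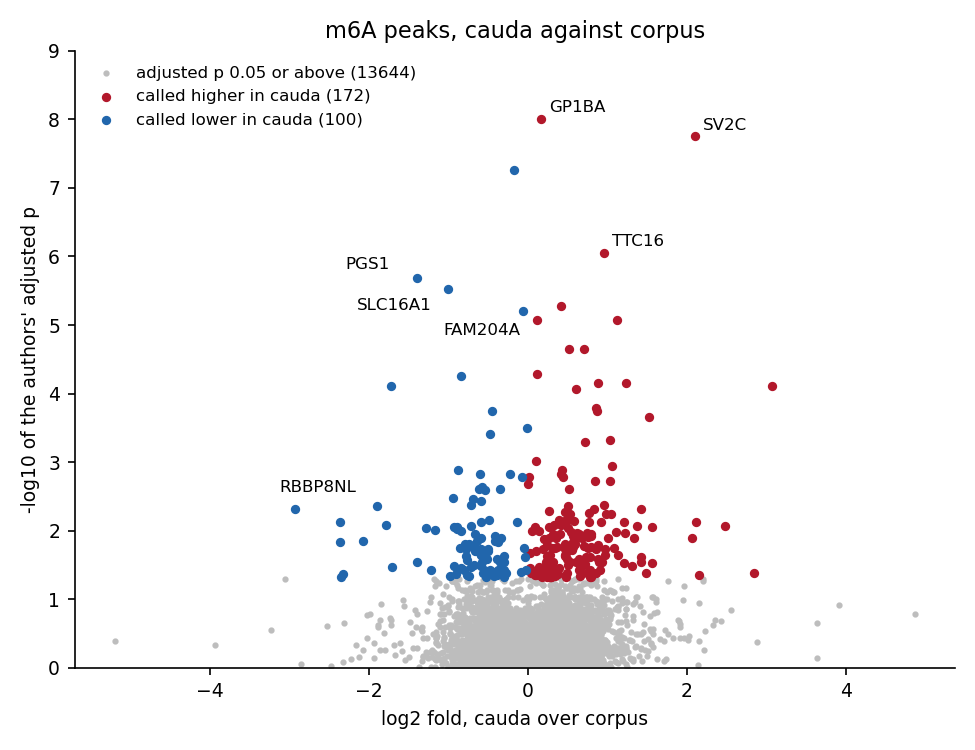
The log2 fold of each site, cauda over corpus, is plotted against -log10 of the authors' adjusted p, with called higher, called lower and other sites in separate colours; the 1 site whose p is listed as 0 is left out. The lowest called fold is -2.93, in RBBP8NL, and GP1BA and FAM204A sit near 0 on the fold axis although their adjusted p is among the lowest.

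The 10 largest gains of called sites in genes with a symbol, of which 9 are described, included those of RTF2 (2.85, adjusted p = 0.041), NIPSNAP2 (2.48, adjusted p = 0.0085) and AFG3L2 (2.16, adjusted p = 0.045) per the authors' deposited table. AFG3L2 is a subunit of a protease of the inner mitochondrial membrane.

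PPM1A, a protein phosphatase, had a site at 2.12 (adjusted p = 0.0076), and SV2C, a glycoprotein of synaptic vesicles, had one at 2.10 (adjusted p = 1.8e-08) per the authors' deposited table. The SV2C site is the only one of its gene, an unspliced stretch of 450 bases on chromosome 11 from 17613320 to 17613769 on the minus strand. Smaller gains were those of TADA2A, an adaptor of histone acetyltransferase complexes (2.07, adjusted p = 0.013), LRRFIP2 (1.56, adjusted p = 0.030) and STX6, a syntaxin of the trans-Golgi network (1.53, adjusted p = 2.2e-04), per the authors' deposited table. PNPLA1, a lipase-family protein of ceramide synthesis, had a site at 2.19 whose p is listed as 0 per the authors' deposited table, which gives no measure of strength. The next lowest log10 p in that table was -11.9.

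The 10 largest losses began with RBBP8NL at -2.93 (adjusted p = 0.0049), on chromosome 12 from 47884482 to 47885550 on the plus strand per the authors' deposited table. Ubr4 had a site at -2.37 (adjusted p = 0.0074), and GID8, a subunit of another ubiquitin ligase complex, had one at -2.36 (adjusted p = 0.015) per the authors' deposited table. Sites of PTPA, an activator of protein phosphatase 2A (-2.35, adjusted p = 0.048), RRP36, which acts in ribosomal RNA processing (-2.32, adjusted p = 0.043), and HAUS7, a subunit of the spindle complex augmin (-2.08, adjusted p = 0.014), were lower per the authors' deposited table. LAMA4, a laminin chain of vascular basement membranes, had its last of 8 sites at -1.90 (adjusted p = 0.0044) per the authors' deposited table. FLOT1, a membrane raft protein (-1.79, adjusted p = 0.0081), SLC16A1 (-1.72, adjusted p = 7.8e-05) and GPR89A, a Golgi pH regulator (-1.71, adjusted p = 0.034), completed these losses per the authors' deposited table.

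These extreme sites were short. All 10 of the losses covered 151 to 299 bases, and the 10 gains covered 148 to 450 bases, of which 9 were 300 bases or less. Of the gains, 8 held candidate adenosines in the authors' list for the cauda and 0 held any in the list for the corpus. Of the losses, 8 held candidates in the corpus list and 2 in the cauda list. A candidate is not always a predicted m6A site. The authors classed a candidate as an m6A site in 4 of the gains and in 0 of the losses.

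The lowest p-values in genes with a symbol picked out other sites. The lowest above 0 was that of GP1BA, a platelet glycoprotein, with an adjusted p of 9.8e-09 at a log2 fold of only 0.17 per the authors' deposited table. Its site covers 1085 bases on chromosome 19 from 41673580 to 41674664 on the plus strand, with 28 candidate adenosines listed in the cauda and 0 in the corpus. FAM204A had an adjusted p of 6.3e-06 at -0.061, and SPARC, a matrix glycoprotein, had one of 8.5e-06 at 0.11 per the authors' deposited table. The other sites among these 10 had larger folds. Higher in the cauda per the authors' deposited table were SV2C (above), TTC16 (0.96, adjusted p = 8.9e-07), ZMAT1 (0.42, adjusted p = 5.4e-06), CDHR3, a cadherin-related protein of airway cilia (1.12, adjusted p = 8.5e-06), and DLX3, a homeodomain factor of epithelia (0.52, adjusted p = 2.2e-05). DLX3 shared the last place of the 10 with FOXO1, a forkhead factor, at 0.71 and the same p per the authors' deposited table. Lower were PGS1, an enzyme of cardiolipin synthesis (-1.39, adjusted p = 2.0e-06), and SLC16A1 (-1.0, adjusted p = 3.0e-06) per the authors' deposited table. A site of a gene without a symbol, outside these 10, had an adjusted p of 5.5e-08 at -0.17 per the authors' deposited table.

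Longer sites were called more often and differed less, and the intervals of the shortest and longest class did not overlap. Of 2335 sites of 150 bases or less, 21 were called (0.899%, 95% Wilson interval 0.589 to 1.37), and of 591 sites over 1000 bases 23 were called (3.89%, 2.61 to 5.77). The classes between rose in order, with 1.62% at 151 to 200 bases, 1.66% at 201 to 300, 2.33% at 301 to 500 and 2.95% at 501 to 1000. The intervals cover counting error only, and sites of 1 gene share their reads, so they are not independent. Over the same classes the median absolute log2 fold of all sites per the authors' deposited table fell from 0.29 to 0.10. A 2-fold difference was found at 5.27% of the shortest sites and at 0% of those over 500 bases.

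The number of reads behind a site was not tested, since the table gives none. Called sites of 150 bases or less had a median absolute log2 fold of 0.89 and those over 1000 bases 0.32 per the authors' deposited table. The median length was 397 bases for called higher sites, 299.5 for called lower sites and 251 for all sites. Of the 23 called sites over 1000 bases, 19 were higher in the cauda, while the class of 201 to 300 bases had 25 higher and 30 lower.

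**Figure D2:**
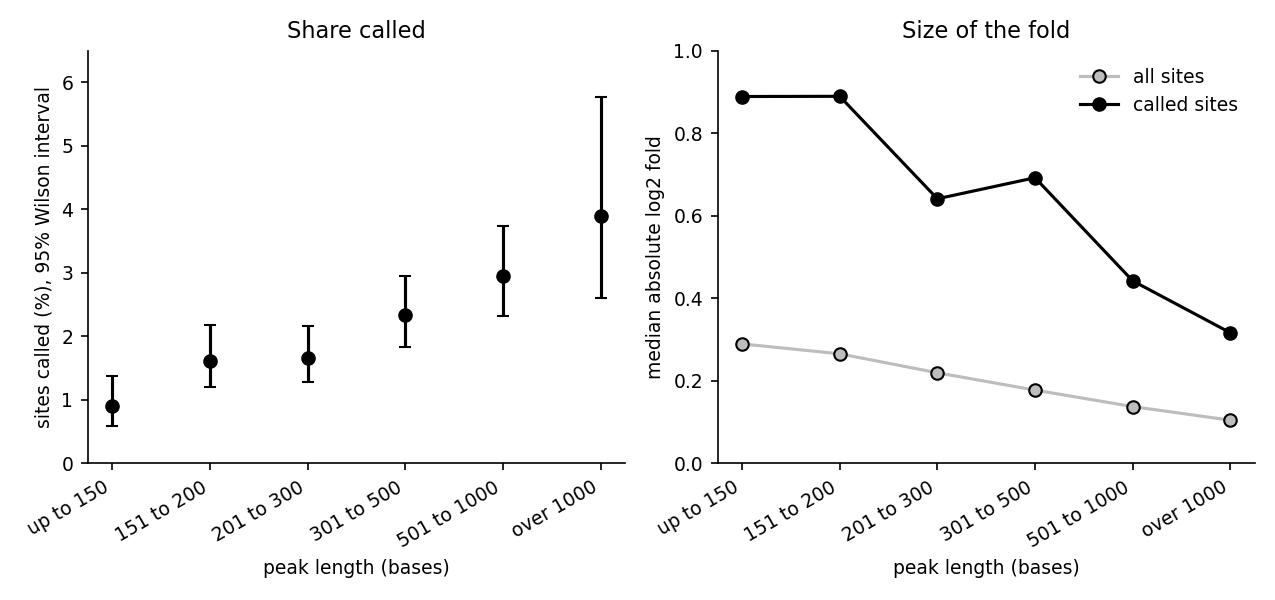
The share of sites called, with 95% Wilson intervals, and the absolute log2 fold are plotted by class of site length in bases. The share called was 0.899% in the shortest class and 3.89% in the longest, while the median absolute log2 fold went from 0.29 to 0.10.

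The 5 longest called sites carried small to moderate folds. Golga2, a matrix protein of the Golgi, had a called site of 2289 bases at a log2 fold of 0.022 (adjusted p = 0.035) per the authors' deposited table. BOD1L1 had one of 2199 bases at -0.35 (adjusted p = 0.028), and CGNL1, a paracingulin of cell junctions, had one of 2095 bases at -0.14 (adjusted p = 0.0074) per the authors' deposited table. ZNF445 (2085 bases) stood at 0.051 (adjusted p = 0.010), and ARHGAP35, a GTPase-activating protein (1936 bases), at 0.42 (adjusted p = 0.0015) per the authors' deposited table.

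The rise with length was present in unspliced and in spliced sites. A site is taken as unspliced when its length equals the distance from its first to its last base. Of 5847 unspliced sites 97 were called (1.66%, 95% Wilson interval 1.36 to 2.02), and of 8070 spliced sites 176 (2.18%, 1.88 to 2.52). From the shortest to the longest class the share called went from 0.761% to 4.60% in unspliced sites and from 1.04% to 3.60% in spliced sites. The median log2 fold per the authors' deposited table was 0.089 for unspliced and 0.019 for spliced sites.

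The share called did not follow the number of sites in a gene in order. Genes with 1 site (4461 genes) had 90 called sites (2.02%, 95% Wilson interval 1.64 to 2.47), and genes with 6 or more had 16 of 816 (1.96%). Sites of genes with 5 were called at 3.28% (2.11 to 5.06), and those of genes with 2, 3 and 4 at 1.71%, 1.73% and 2.43%. The first site of a gene (1.84%), its last (1.90%) and those between (2.09%) were called at like shares. The 5 entries richest in sites held 0 called ones. With 11 to 20 sites each and 1.96% of all sites called, this sets none of them apart. An unadjusted p under 0.05, found at 16.4% of all sites, was reached by 1 to 3 sites in each of these entries. These were Syne2, which links the nuclear envelope to the cytoskeleton (20 sites), Macf1, a crosslinker of microtubules and actin (17 and 16 sites under 2 gene identifiers), the cadherin FAT1 (12 sites) and the anchoring protein AKAP13 (11 sites, first by name of 3 genes with that number). Their log2 folds per the authors' deposited table ranged from -1.17 to 0.86 in Syne2, from -0.54 to 0.24 in FAT1 and from -0.48 to 0.55 in AKAP13. Macf1 sites ranged from -1.55 to 0.39 under the first identifier and from -2.02 to 1.28 under the other.

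Sites of the same gene often took opposite signs. With 55.9% of all sites positive, mixed signs are also common among unrelated sites, so the shares below set no gene apart. Of 3478 genes with 2 or more sites, 2030 (58.4%) held positive and negative log2 folds, and the median distance between the lowest and highest log2 fold in a gene was 0.38 per the authors' deposited table. Beside called sites of 1 direction lay 348 uncalled sites in the same genes, of which 192 (55.2%) had the sign of the called one. A single called site was found in 238 genes and several in 14, of which 13 have a symbol.

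NRK, a kinase of the germinal centre kinase family on chromosome X, held 4 called sites among its 5, more than any other gene. From 5' to 3' their log2 folds per the authors' deposited table were 0.11 (adjusted p = 5.1e-05), -1.40 (adjusted p = 0.028), -0.43 (adjusted p = 0.046) and 0.87 (adjusted p = 1.8e-04), followed by an uncalled site at 0.15. NRK was thus lower in the cauda at a pair of adjoining inner sites and higher on both sides of them. The 4 called sites extend over 56377912 to 56413766 of the minus strand of chromosome X.

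Called sites in both directions were also found in Dennd1a, Eif4g1 and RAB7A. Dennd1a, an activator of the GTPase Rab35, had a site at -0.79 (adjusted p = 0.015) upstream of one at 0.78 (adjusted p = 0.024) per the authors' deposited table. Eif4g1, the scaffold of translation initiation, had sites at 0.20 (adjusted p = 0.018) and -0.48 (adjusted p = 0.041) per the authors' deposited table. RAB7A, the GTPase of late endosomes, had one at -0.30 (adjusted p = 0.037) and one at 0.035 (adjusted p = 0.042) per the authors' deposited table. The first held 3 candidate adenosines in the authors' list for the corpus and 0 in that for the cauda, and the other the reverse. None of these candidates was classed as an m6A site.

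Other genes moved one way at all their called sites. PGS1 had 3 neighbouring called sites of its 6, at -0.053 (adjusted p = 0.018), -0.78 (adjusted p = 0.018) and -1.39 (adjusted p = 2.0e-06) from 5' to 3' per the authors' deposited table. They lie on chromosome 19 from 11065341 to 11067432 on the plus strand. SLC16A1, the lactate and pyruvate transporter MCT1, had called losses at its last 2 of 4 sites, at -1.72 and -1.0, with uncalled values of -0.27 and -0.73 upstream per the authors' deposited table. They lie on chromosome 3 from 42319137 to 42322604 on the minus strand. PNPLA1 rose at both of its sites, at 2.19 and 1.37 (adjusted p = 0.0085 for the latter), and so did CDHR3, at 1.12 and 0.72 (adjusted p = 0.030 for the latter), per the authors' deposited table.

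MMRN1, a multimerin of platelets and endothelium, was lower at its first site (-0.89, adjusted p = 0.0095) and its last but one (-0.84, adjusted p = 5.5e-05) of 5 per the authors' deposited table. SNRNP70, a protein of the U1 splicing particle, was lower at its first sites, at -0.94 (adjusted p = 0.0034) and -0.35 (adjusted p = 0.0025), per the authors' deposited table. DEFB119, a beta-defensin of the epididymis, was lower at 2 of 4 sites, at -0.48 and -0.88, beside an uncalled site at 0.83 per the authors' deposited table. MAML3, a coactivator of Notch targets, was higher at its first and last of 4 sites, at 0.92 (adjusted p = 0.0076) and 0.56 (adjusted p = 0.015), per the authors' deposited table. PCDHGC5, a clustered protocadherin, was higher at 2 of its 11 sites, at 0.68 (adjusted p = 0.013) and 0.47 (adjusted p = 0.023), per the authors' deposited table. Protocadherin gamma genes lie together in a cluster, and which member these sites belong to was not checked.

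**Figure D3:**
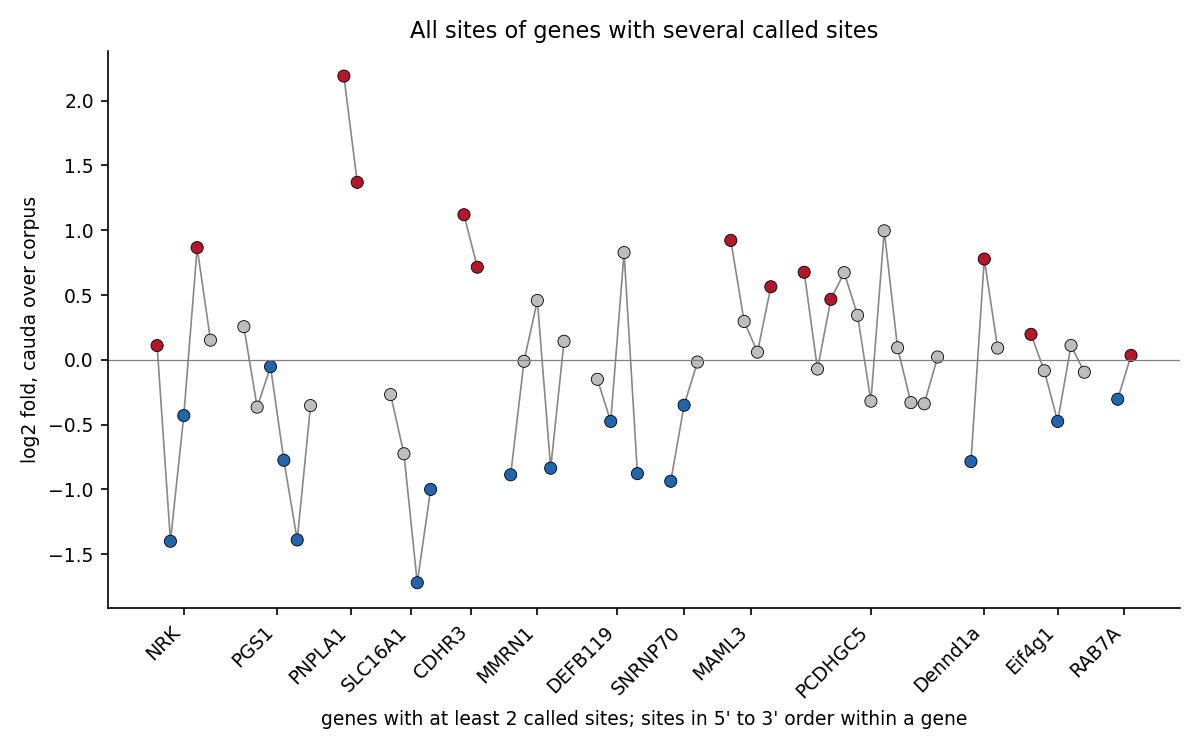
The log2 fold of every site is plotted for the genes with 2 or more called sites, in order from 5' to 3', with called sites filled. Many of these genes hold called beside uncalled sites, and NRK crosses 0 from 0.11 to -1.40 and from -0.43 to 0.87.

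The authors' candidate lists give single adenosines that a predictor scored inside the peaks of each region. The corpus list held 99547 positions and the cauda list 103697. Of these the authors classed 19197 corpus and 19786 cauda positions as m6A sites, and the others as non-m6A. A corpus candidate was held by 72.3% of the compared sites and a cauda candidate by 74.4%. The lists come from the same libraries as the folds, so they give no independent support and serve as a description of the called sites. Sites with candidates in both lists numbered 8469, with 127 called (1.5%, 86 higher and 41 lower). Of 1887 sites with candidates in the cauda alone 71 were called (3.76%), 66 of them higher, and of 1589 with candidates in the corpus alone 47 were called (2.96%), 43 of them lower. The median log2 fold per the authors' deposited table was 0.35 for the cauda-only sites, -0.29 for the corpus-only sites and 0.041 for sites with candidates in both.

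Of the 273 called sites, 109 had candidates in the list of only 1 region and were higher in that region. The cauda was taken as the numerator of the folds from the signs of the unspliced sites listed in 1 region, so the direction of these classes was fixed by that choice and is not a result. Called sites that went against their listing were few, and all but that of NKAPL were spliced. Candidates in introns or on the other strand also count for a site, so those of spliced sites may lie outside the enriched bases. Cauda-only sites with lower folds per the authors' deposited table were both inner NRK sites, SERPINA1 (-0.64), RTRAF (-0.60) and RIBC2 (-0.28). Corpus-only sites with higher folds per the authors' deposited table were RASSF8 (0.24), KIF5C (0.27), NKAPL (0.47) and RSPH10B (0.79). Those outside the naming rule in these lists were chosen after their values were seen.

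Candidate numbers were also compared where both lists held some. The numerator of the folds was chosen from these lists, which come from the same libraries. The direction of the counts below is therefore not a result either, and more, fewer or equal candidates were not counted over all sites. Among the 86 called higher sites of this kind, 52 held more candidates in the cauda list, 3 more in the corpus list and 31 equal numbers. Among the 41 called lower sites, 20 held more in the corpus list, 2 more in the cauda list and 19 equal numbers. The ZMAT1 site held 37 candidates in the corpus and 60 in the cauda, whereas FAM204A held 8 in each. A position that the authors classed as an m6A site was held by 102 of the called higher sites in the cauda list and 65 in the corpus list. Of the called lower sites, 46 held one in the corpus list and 29 in the cauda list. Over all sites, 5059 held one in both lists, 1089 in the cauda list alone and 903 in the corpus list alone. Sites whose best candidate was of the very high confidence class were called at 2.41%, those of the high class at 2.50%, and those with no candidate at 1.42%. The moderate (1.81%), low (1.88%) and non-m6A (1.86%) classes lay between. Median lengths were 448 bases in the very high class, 397 in the high class and 194 without a candidate. The share called also rose with length, so score and length cannot be told apart here.

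**Figure D4:**
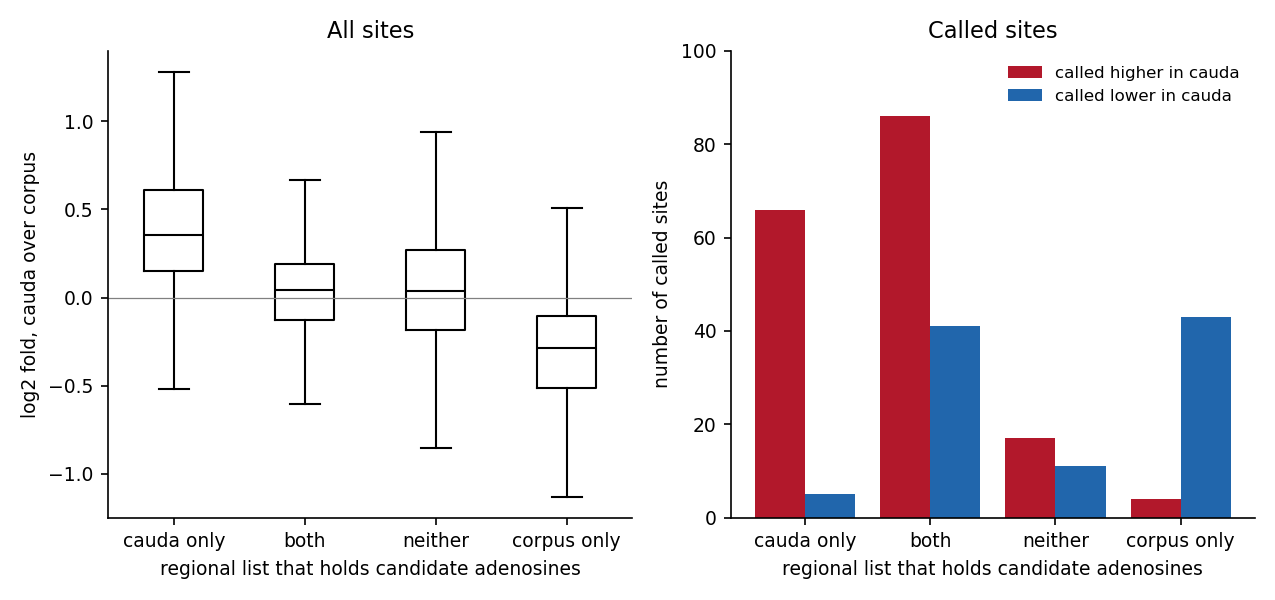
Log2 folds, cauda over corpus, are plotted by whether a site held candidate adenosines in both lists, the cauda list alone, the corpus list alone or neither. The medians were 0.041, 0.35, -0.29 and 0.036.

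Genes were also read by lists of known function and of cell type markers. The 26 lists covered 695 sites in 332 genes, of which 24 were called (3.45%, against 1.96% of all sites), 12 higher and 12 lower. Their median log2 fold was 0.031 per the authors' deposited table, against 0.046 for all sites. A called site was found in 15 of the lists, and never more than 3 in any.

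Genes that place, remove or read m6A had 1 called site of 47 (2.13%), near the 1.96% of all sites. Of 20 writer sites 0 were called, with 2 at an unadjusted p under 0.05, and the highest value was that of VIRMA, a scaffold of the writer complex (0.79, adjusted p = 0.14), per the authors' deposited table. The 2 eraser sites, in ALKBH5 (0.48, adjusted p = 0.069) and FTO (0.073, adjusted p = 0.75), were not called per the authors' deposited table. Of 25 reader sites 1 was called, in FXR2, a paralog of the fragile X protein (-0.50, adjusted p = 0.020), per the authors' deposited table. The largest reader value, -1.93 in HNRNPA2B1, was not called (adjusted p = 0.71) per the authors' deposited table.

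Genes of epididymal function gave few called sites, and the lists are small beside the 1.96% of all sites called. The largest share was that of the beta-defensins, 37.5% of only 8 sites. Of these 8 sites 3 were lower, those of DEFB119 above and DEFB118 (-0.77, adjusted p = 0.023) per the authors' deposited table. Another 2 were above 0 at an unadjusted p under 0.05, and the median log2 fold of the 8 was -0.048. The called DEFB118 site and the last DEFB119 site lie on opposite strands of chromosome 12 and share 14 bases, so without strand their reads cannot be told apart. Of 17 sites of secreted sperm-coating genes 1 was higher, ELSPBP1, a sperm-binding protein (0.25, adjusted p = 0.038), while 6 others were below 0 at an unadjusted p under 0.05 per the authors' deposited table. Of all 13917 sites, 1352 were above 0 and 930 below 0 at that p, and differences of these small lists from all sites were not tested. Of 7 HOX sites HOXA10 was higher (1.03, adjusted p = 0.0019), with 8 candidates in the cauda list and 0 in the corpus list, per the authors' deposited table. None of these candidates was classed as an m6A site. Among 39 junction sites AFDN, the adherens junction protein afadin (-0.59, adjusted p = 0.032), and CGNL1 were lower per the authors' deposited table.

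Some functional lists held no called site, but with 13 to 37 sites each and 1.96% of all sites called, this sets none of them apart. These were ion and water transport (13 sites, 3 at an unadjusted p under 0.05), steroid receptors and enzymes (37 sites, 1 positive and 5 negative at that p) and antioxidant genes (21 sites, 3 and 2). Heat shock genes (35 sites, 4 and 1) and immediate early genes (23 sites, 3 and 1) held none either. Over all sites 16.4% reached that unadjusted p.

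Signalling and chromatin genes held 1 or 2 called sites a list. The WNT (2.22%), TGF-beta and BMP (2.56%) and chromatin (1.55%) shares were near the 1.96% of all sites, and the Notch share of 5.56% came from 1 gene. Of 45 WNT sites 1 was lower, LGR4, the R-spondin receptor whose loss impairs the male tract (-0.55, adjusted p = 0.037), while its relative LGR5 stood at 1.97 without being called (adjusted p = 0.063) per the authors' deposited table. Of 39 TGF-beta and BMP sites 1 was lower, SMAD2, a transducer of TGF-beta signals (-0.84, adjusted p = 0.010), per the authors' deposited table. Of 36 Notch sites 2 were higher, both in MAML3. Of 129 chromatin sites 2 were higher, in the histone methyltransferase NSD1 (0.27, adjusted p = 0.0087) and the remodelling ATPase SMARCA2 (0.21, adjusted p = 0.013), per the authors' deposited table.

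Markers of other cell types were called in both directions. The share called was 4.92% for fibroblast and matrix genes and 15.4% for multiciliated cell genes, beside 1.96% of all sites. The other marker lists with a called site held only 1 each, which is a large share of so few sites. Differences from the share of all sites were not tested. Fibroblast and matrix genes had 3 of 61 sites called, with SPARC higher and LAMA4 and the growth factor receptor PDGFRA (-0.77, adjusted p = 0.027) lower per the authors' deposited table. Multiciliated cell genes had 2 of 13 called, TEKT1, a tektin of ciliary microtubules (1.34, adjusted p = 0.013), and TPPP3 (-0.72, adjusted p = 0.0085), per the authors' deposited table. Of 8 basal cell sites Itga6, a laminin receptor subunit, was lower (-0.59, adjusted p = 0.022) per the authors' deposited table. Of 23 macrophage and lymphocyte sites FCRL5, a B cell receptor, was higher (0.98, adjusted p = 0.019) per the authors' deposited table, and the 4 sites of PTPRC lay from -0.54 to -0.31, uncalled. Of 22 endothelial sites EMCN, endomucin, was called at a log2 fold of only 0.011 (adjusted p = 0.0016) per the authors' deposited table. Of 5 sperm and spermatid sites 1, in CYLC1, a cylicin of the sperm head, was higher (0.29, adjusted p = 0.037) per the authors' deposited table. It was the 1 positive value of the 5, whose median was -0.25, and the other CYLC1 site stood at -2.53, uncalled (adjusted p = 0.25), per the authors' deposited table.

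Clear and narrow cells (10 sites), smooth muscle (50 sites) and adipocytes (7 sites) had 0 called sites. With 1.96% of all sites called, 0 among so few sites sets none of these lists apart. At an unadjusted p under 0.05, clear and narrow cells had 3 higher and 0 lower sites. Smooth muscle had 1 and 3 at that p, and adipocytes 1 and 1, beside 16.4% of all sites in either direction. The 2 erythrocyte sites, HEMGN (-0.67) and SLC25A37 (0.24), were uncalled per the authors' deposited table. Median log2 folds of the 19 lists with at least 10 sites ran from -0.098 in macrophages and lymphocytes to 0.12 in clear and narrow cells per the authors' deposited table. How far the makeup of the tissue moves with the called sites was not tested, since expression by region was not analysed here.

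**Figure D5:**
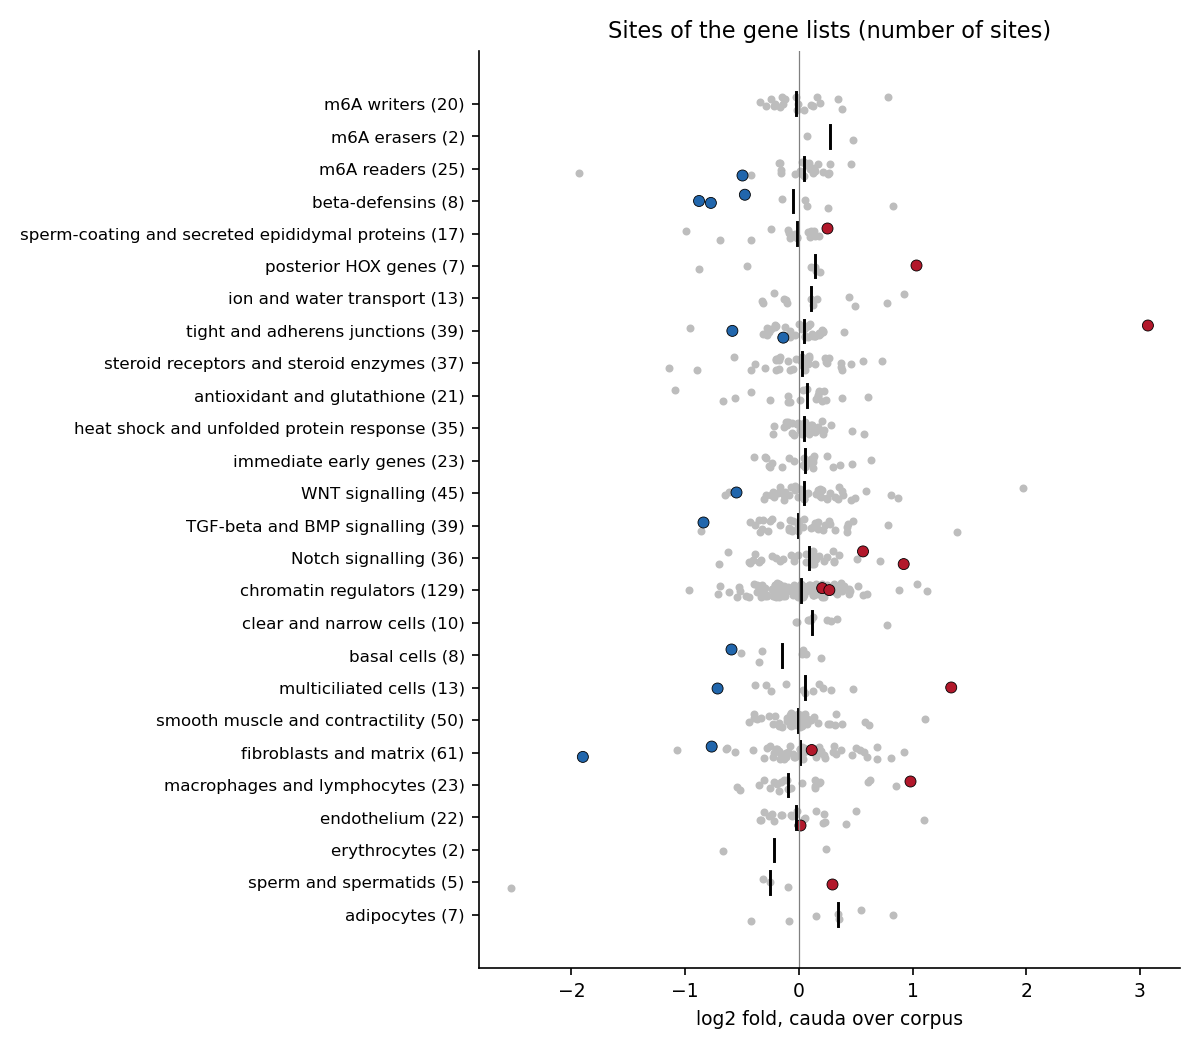
Each point is the log2 fold of 1 site, by gene list, with called sites filled and the median of each list marked. The list medians lie near 0, from -0.25 in sperm and spermatid genes (5 sites) to 0.34 in adipocyte genes (7 sites).

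Ontology terms and pathways were counted in the same way, for the 823 terms with 20 to 400 genes, and those named here were chosen after their counts were seen. The share called was above the 1.96% of all sites in 360 terms and at or below it in 463, so the named shares do not set a term apart. Spermatogenesis held 11 called sites of 211 (5.21%), 7 higher and 4 lower. They lay in genes such as TEX19, a germline protein (0.52, adjusted p = 0.0025), TAF4B, a subunit of the general factor TFIID (-0.98), and the histone demethylase KDM2B (0.77) per the authors' deposited table. Cell surface held 13 of 267 (4.87%), 8 higher and 5 lower, and intracellular protein transport 10 of 242 (4.13%), 8 higher and 2 lower. Lipid droplet held 6 of 43 (14.0%), 5 higher and 1 lower, in ACSL3, GIMAP7, PNPLA1 and RAB7A, the last 2 of which gave several sites. Innate immune response held 8 of 217 (3.69%), 2 higher and 6 lower. Lower shares were found for nucleolus (9 of 718, 1.25%), extracellular space (5 of 401, 1.25%) and extracellular exosome (5 of 523, 0.956%).

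Called sites were spread over the chromosomes. The share called ran from 0 of 62 sites on Y (95% Wilson upper bound 5.83%) to 2.82% on chromosome 14. Chromosome 6 had 1 higher and 7 lower sites of 379, and chromosome 16 had 9 and 1 of 470.

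Some called sites had the same first and last base in the authors' other region pairs, which share the cauda or the corpus libraries with this comparison, so that the values below are not independent. The same span was tested for 82 sites in cauda over caput and for 59 in corpus over caput. Of these, 19 were also called in cauda over caput and 13 in corpus over caput, so most were not. Over all sites of those pairs, 314 of 13826 and 419 of 14061 were called. The genes named were chosen after their values were seen, among those also called there. In the authors' deposited table the last SLC16A1 site stood at -1.0 for cauda over corpus and 0.96 for corpus over caput (adjusted p = 2.8e-04), so the corpus was the higher region in both. The other called SLC16A1 site had -1.72 and 1.5 (adjusted p = 0.0010) per the authors' deposited table. PPM1A had 2.12 for cauda over corpus, -1.46 for corpus over caput (adjusted p = 0.011) and an uncalled 0.68 for cauda over caput (adjusted p = 0.47) per the authors' deposited table. The corpus was thus the lowest of the regions at this PPM1A site, by the order of the folds. PDGFRA was lower in the cauda against both other regions, at -0.77 and -0.92 (adjusted p = 0.0060 against the caput), and so was LGR4, at -0.55 and -0.60 (adjusted p = 0.034), per the authors' deposited table. STX6 was higher against both, at 1.53 and 1.17 (adjusted p = 0.0078), and so was TEX19, at 0.52 and 0.67 (adjusted p = 1.3e-05), per the authors' deposited table. GALNT5, an enzyme that starts O-glycans, stood at 1.23 (adjusted p = 6.9e-05) over the corpus per the authors' deposited table. Over the caput its value was close to 0, at -0.042 (adjusted p = 0.024), per the authors' deposited table.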

How the data were processed

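The labels' protocols describe poly(A) RNA that was fragmented and enriched with an m6A antibody. The submitters' processing notes name Trimmomatic, HISAT2 and deepTools but no versions. For the genome build, peak caller, site predictor and differential test, nothing is given in the sources used here. Per the file headers, the authors' deposited table holds for each site a ratio (fold) between the regions, its log2 value, a p-value and an adjusted p-value, and log10 forms of both. The headers do not say which region is the numerator. Folds are read as cauda over corpus, because unspliced sites with candidates in the cauda list alone had a positive median and those in the corpus list alone a negative one. The candidate lists hold a class and a combined score from the authors' predictor, per the file headers. In the expression file, 9 columns of values match no label and were not used, so only its symbols, ontology terms and pathways were joined by gene identifier. The caput candidate list was not used here.

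No model was refitted, since the files give no value per library. Calls use the authors' adjusted p under 0.05, and shares have 95% Wilson intervals for counting error only (statsmodels 0.14.6, pandas 2.3.3). A candidate belongs to a site when it falls between its first and last base, introns included and strand ignored. The counting was tested on simulated data. Named genes have a symbol and are the 10 highest and 10 lowest folds among called sites, the 10 lowest p above 0, called sites in a list, genes with 2 or more called sites or calls in both directions, the 5 longest called sites and the 5 genes with the most sites. The 26 gene lists hold 637 entries. The sites, lists and rules were chosen with earlier results of these data known. Alternatives covered the threshold, the adjustment, sites per gene, spliced sites, candidate minimum, overlap and length. Of the sites that the rule names, 1 is not reported here.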

Additional observations from a re-analysis of the deposited data

How the results depend on the processing

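Of 47 alternatives to 23 results, 26 moved a value little and 21 moved it further. Against 173 higher and 100 lower sites, there were 55 and 34 at an adjusted p under 0.01, 294 and 188 under 0.10, 1352 and 930 at an unadjusted p under 0.05, 31 and 16 when a 2-fold difference was also asked for, and 68 and 29 among unspliced sites, which are fewer. Recomputing the Benjamini-Hochberg adjustment over the listed sites gave 207 and 124. The deposited adjustment corresponds to about 16839 tests, more than are listed, so the recomputed one is more lenient. Keeping 1 site per gene gave 166 and 90, and leaving out sites of 200 bases or less, an alternative added after the data were seen, gave 133 and 77. With an overlap of 50% of each peak, 62.4% of sites met a corpus peak and 64.3% a cauda peak, against 73.2% and 75.5% with 1 base. Over called sites alone the median log2 fold was 0.39 for unspliced and 0.22 for spliced sites. Among unspliced sites, genes with 3 sites had 0.896% called and genes with 5 had 1.76%. Classed by first-to-last distance, 0.999% were called at 151 to 200 bases, 2.19% at 501 to 1000 and 2.46% above 1000, so the rise with length was smaller. At an unadjusted p the lists held 81 higher and 58 lower sites. The causes of these moves were not tested. No paired analysis was possible because the table holds no value per library, and leaving out libraries could not be run for the same reason. The planned count of candidates within the blocks of a site was not run, since the table gives no block positions; unspliced sites were used instead, chosen after the data were seen.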

Other observations

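Gene families by name, chosen after their values were seen, are set beside the 1.96% of all sites called, and differences between families were not tested. Genes whose symbol begins with RAB and a number are GTPases of membrane traffic and some of their partners. Of their 66 sites 6 were called (9.09%), 5 higher and 1 lower in the cauda. Per the authors' deposited table they included Rab10 (0.38), Rab12 (0.46), RAB3GAP2 (1.01) and RAB11FIP1 (0.64), beside both RAB7A sites. Called sites of RABGAP1L (0.72) and RABGEF1 (-0.66), whose symbols have no number after RAB, are not in this count. Of 30 sites in PRPF genes, which encode pre-mRNA splicing factors, 3 were called, all higher, in PRPF31 (1.05), PRPF38A (1.11) and PRPF39 (0.81) per the authors' deposited table, although the median log2 fold of the 30 was -0.061. Of 445 sites in ZNF genes 10 were called (2.25%, near the share of all sites), 8 higher and 2 lower. Of 148 sites in genes named SLC, whatever their function, 6 were called (4.05%), 2 higher and 4 lower.

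The deposited adjusted p-values correspond to a Benjamini-Hochberg adjustment over about 16839 tests, more than the 13917 sites of the table, and the largest unadjusted p per the authors' deposited table is 0.827. Further sites called in signalling genes, chosen after their values were seen, were NKD1 (0.61) and IKBKB (0.85), higher in the cauda, and STAT3 (-0.48), lower, per the authors' deposited table.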
